A study of Homo sapiens with 18 samples.

Results

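The genes described here are 34 genes of glycolysis and of the routes that branch from it, out of 61806 genes listed in the table of expression values. They are named by function, as the enzymes of glycolysis by isozyme, the lactate dehydrogenases and lactate carriers, the control of pyruvate dehydrogenase, and the pentose phosphate branch. They were chosen with earlier results of these data known, so the shares called below are a description. All 34 were found in the table under 1 identifier each. All of them passed the filter on low values (1 TPM or more in at least 3 libraries, where TPM is a gene's share of all transcripts after correction for length), and the lowest value of any member in any library was 3.22 TPM, for PFKFB2.

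Glycolysis splits glucose into pyruvate in the cytosol and yields ATP and NADH. Many tumour cells turn most of that pyruvate into lactate and export it, and in these cells the genes of the pathway are known targets of hypoxia-inducible factor, of MYC and of the PI3K, AKT and mTOR signalling route. The pentose phosphate pathway leaves glycolysis at glucose 6-phosphate and makes NADPH and ribose phosphate for nucleotides. Pyruvate dehydrogenase carries pyruvate into the citric acid cycle, and the pyruvate dehydrogenase kinases turn it off by phosphorylation.

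LoVo and DLD-1 are established human colorectal cancer cell lines. RNA was sequenced from 18 libraries in 6 groups of 3, for each line the genotype labelled EV, the genotype labelled LIN28B, and LIN28B cells treated with 5 µM alpelisib, a drug that inhibits PI3K alpha. LIN28B binds RNA and keeps let-7 microRNAs from maturing. The design asks how LIN28B and PI3K inhibition change the transcriptome, and no EV group received alpelisib. The labels give neither the duration of treatment, nor a vehicle for the untreated groups, nor whether a LIN28B line is 1 clone. They do not say either that the replicates came from separate cultures, so p-values measure the spread between these libraries, which may be technical.

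LIN28B itself, the check of the labels, measured 2.74, 1.17 and 1.38 TPM in DLD-1 EV and 493, 483 and 408 TPM in DLD-1 LIN28B. In LoVo EV it measured 4.91, 3.66 and 3.87 TPM, against 706, 682 and 674 TPM in the LIN28B libraries with the LoVo label. With alpelisib it was lower than in the untreated LIN28B libraries, at 143 ± 5.68 and 154 ± 7.14 TPM (SD, n = 3; limma, adjusted p = 1.9e-06 and 6.6e-08), and its part in the alpelisib results was not tested. The libraries labelled LoVo LIN28B went against their line label in overall expression: across genes, Pearson's r between them and DLD-1 LIN28B was 0.964 to 0.968, and between them and LoVo EV 0.89 to 0.918, where the EV and LIN28B libraries of DLD-1 gave 0.976 to 0.98 and the EV libraries of the 2 lines 0.886 to 0.918. They and the alpelisib libraries of the same label are called LoVo-labelled below, and in every comparison of those libraries with LoVo EV the effect of LIN28B cannot be told apart from a difference of line. Of 9 markers of colorectal epithelium, 8 were at 1 TPM or more in all libraries, and most markers of fibroblasts (4 of 6), endothelium (3 of 4), immune cells (3 of 5) and erythroid cells (2 of 3) stayed under 1 TPM in all of them. The erythroid list ran with the label, through HBA1: its summed level was at most 0.723 TPM in DLD-1 libraries, 4.03 to 5.57 TPM in LoVo EV, 9.01 to 11.5 TPM in LoVo-labelled LIN28B and 13.3 to 14.3 TPM with alpelisib. From which line the LoVo-labelled LIN28B libraries came is therefore not settled here, and the 2 labels are not taken as replication in separate lines. The depth of the libraries is unknown, because the values carry no counts.

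Together the 34 genes took a sizeable share of the transcripts, and that share was lower with alpelisib. Their summed TPM made up 2.95, 2.95 and 2.82% of the total in the DLD-1 EV libraries, 2.89, 2.89 and 2.71% in DLD-1 LIN28B and 1.63, 1.67 and 1.83% in DLD-1 LIN28B with alpelisib. Under the LoVo label it was 1.76, 1.85 and 2.36% in EV, 3.64, 3.39 and 3.72% in LIN28B and 2.05, 2.30 and 1.91% in LIN28B with alpelisib. The alpelisib libraries did not overlap with the untreated LIN28B libraries under either label, while DLD-1 LIN28B overlapped with DLD-1 EV. Transcripts of the mitochondrial genome moved as well, and as TPM is a share of a fixed total this shifts every other gene. They took 24.0, 23.1 and 14.5% of the TPM in LoVo EV, 8.68 ± 1.56% in LoVo-labelled LIN28B and 9.90 ± 2.07% with alpelisib. In DLD-1 they took 10.4 ± 1.27% in EV, 10.6 ± 0.414% in LIN28B and 13.7 ± 2.75% with alpelisib (SD, n = 3).

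**Figure D1:**
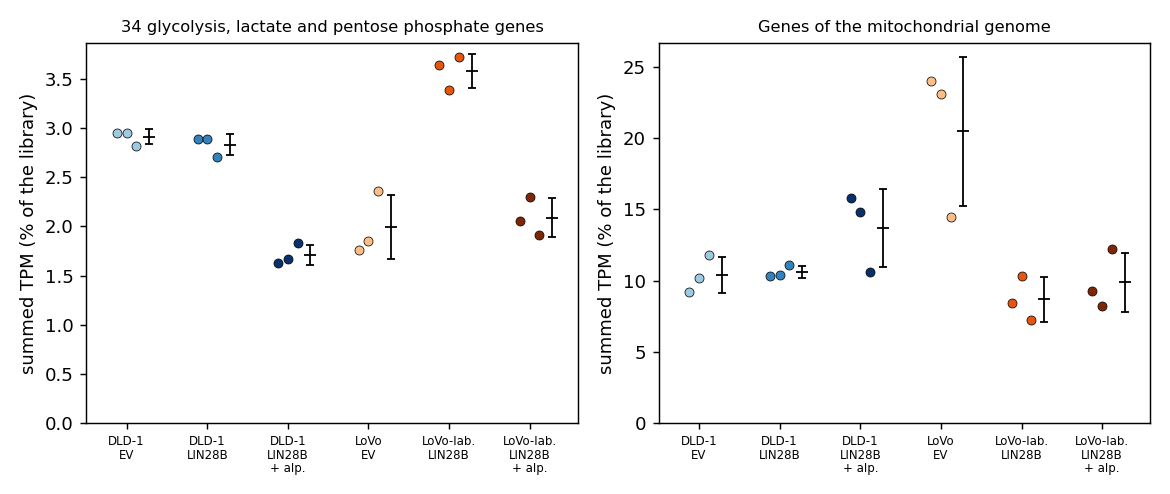
Summed TPM of the 34 genes (left) and of the mitochondrial genome (right) as a percentage of each library's total, with 1 point per library and bars for the mean and SD of 3 libraries. In the left panel the alpelisib libraries lie below the untreated LIN28B libraries under both labels, and LoVo EV replicate 3 stands apart from replicates 1 and 2 in both panels.

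Levels in TPM, which correct for transcript length, spanned a wide range within the pathway. GAPDH was the most abundant member, with a mean over the 18 libraries of 8376 TPM, and PKM, ENO1, ALDOA and LDHA followed at 3106, 2435, 2393 and 2025 TPM. At the low end were the regulator PFKFB2 at 7.22 TPM, BPGM at 7.27 TPM and RPIA at 11.3 TPM. Muscle enolase ENO3 averaged 19.8 TPM and brain aldolase ALDOC 101 TPM, while LDHB, the heart subunit of lactate dehydrogenase, averaged 1034 TPM. Neighbours in this order, such as ENO1 and ALDOA with ranges of 1390.3 to 3796 and 1416 to 3774 TPM over libraries, do not separate beyond their spread.

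Alpelisib was compared with no treatment in LIN28B cells of each label, and most of the 34 genes were lower with it. In DLD-1, limma (a linear model fitted across all genes, with Benjamini-Hochberg adjustment) called 29 of the 34 genes lower and 1 higher at an adjusted p under 0.05, where 21.9% of the 18537 genes tested were called lower and 9.05% higher. In the LoVo-labelled cells it called 30 lower and 1 higher, where 24.6% of all genes were called lower and 15.1% higher. The median difference of the 34 genes was -0.75 on the log2(TPM + 1) scale in DLD-1 and -0.71 in the LoVo-labelled cells, beside -0.09 and -0.06 over all genes tested. A difference on this scale understates the change of the least abundant genes. In bulk RNA, fewer cells of a type and less RNA per cell cannot be told apart. With TPM recomputed without the mitochondrial genome, 28 members were lower in DLD-1 and 30 in the LoVo-labelled cells. Scaled by the median of ratios, 4 calls were lost in DLD-1 and 2 in the LoVo-labelled cells. With 1 library left out, 26 to 31 members were lower in DLD-1 and 26 to 30 in the LoVo-labelled cells. Shares of all genes were counted in the main fit only. The comparisons under the 2 labels share no library, but whether they are separate lines is not settled. Of the genes called lower, 28 were the same in both, which is 96.6% of the DLD-1 calls and 93.3% of the LoVo-labelled calls. With 29 and 30 of 34 called, a large overlap follows from the counts alone. The overlap over all genes was not counted. PFKL was called lower in DLD-1 only, and PFKM and RPIA in the LoVo-labelled cells only, which is no test of a difference between the labels.

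**Figure D2:**
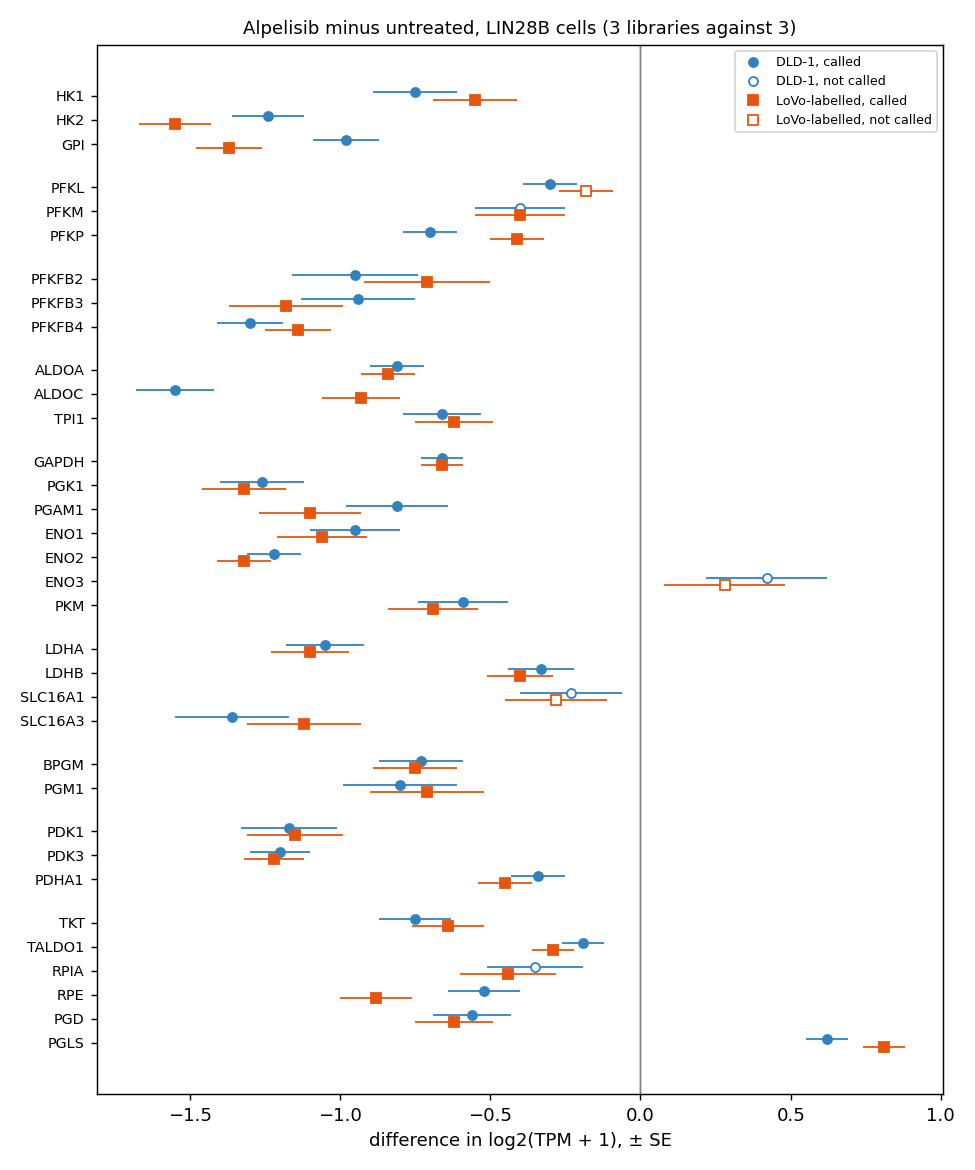
Difference in log2(TPM + 1) between LIN28B cells with alpelisib and without it for each of the 34 genes, ordered by role, with bars for the SE. Filled symbols passed an adjusted p under 0.05, circles are DLD-1 and squares LoVo-labelled; all filled symbols lie left of 0 except PGLS at 0.62 and 0.81.

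The first steps of glycolysis trap glucose as glucose 6-phosphate and convert it to fructose 6-phosphate, and all 3 genes for them fell under both labels. HK2, the hexokinase induced in many tumours, measured 83.1, 95.4 and 84.8 TPM in DLD-1 EV, 94.9, 89.5 and 93.7 TPM in DLD-1 LIN28B and 33.0, 41.3 and 42.0 TPM in DLD-1 LIN28B with alpelisib. In the LoVo-labelled series HK2 measured 37.9, 43.0 and 50.6 TPM in LoVo EV libraries, 171, 145 and 161 TPM in LoVo-labelled LIN28B and 51.4, 62.1 and 48.2 TPM in the alpelisib libraries under that label. The alpelisib libraries lay below every untreated LIN28B library, with log2 differences of -1.24 ± 0.12 (SE) in DLD-1 and -1.55 ± 0.12 in the LoVo-labelled cells (limma, adjusted p = 3.89e-06 and 1.83e-07). HK1, the hexokinase found in most tissues, measured 95.7, 104 and 86.8 TPM in DLD-1 EV, 83.4, 82.6 and 80.1 TPM in DLD-1 LIN28B and 43.5, 48.2 and 53.7 TPM in DLD-1 LIN28B with alpelisib. HK1 values with the LoVo label were 41.8, 45.2 and 61.3 TPM in LoVo EV libraries, 173, 145 and 172 TPM in LoVo-labelled LIN28B and 119, 128 and 88.9 TPM in the alpelisib libraries under that label. HK1 fell by 0.75 and 0.55 on the log2 scale, without overlap (limma, adjusted p = 0.00123 and 0.00629). GPI, glucose 6-phosphate isomerase, was the most abundant of the 3, at 679, 747 and 677 TPM in DLD-1 EV, 790.0, 798 and 715 TPM in DLD-1 LIN28B and 356, 378 and 434 TPM in DLD-1 LIN28B with alpelisib. With the LoVo label it was at 452, 515 and 577 TPM in LoVo EV libraries, 1308, 1073 and 1249 TPM in LoVo-labelled LIN28B and 449, 544 and 411 TPM in the alpelisib libraries under that label. Its differences were -0.98 ± 0.11 and -1.37 ± 0.11, and no alpelisib library reached an untreated one.

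Phosphofructokinase 1 commits the sugar to glycolysis and 2 of its 3 genes fell under each label. PFKL, the liver isozyme and the most abundant in all groups but LoVo EV, measured 278, 303 and 272 TPM in DLD-1 EV, 258, 244 and 249 TPM in DLD-1 LIN28B and 192, 192 and 227 TPM in DLD-1 LIN28B with alpelisib. In the LoVo-labelled cells the 2 groups overlapped, at 279.7, 239 and 263 TPM without and 220.5, 257 and 214 TPM with alpelisib, and LoVo EV was at 156, 164 and 176 TPM. PFKL fell by 0.30 in DLD-1 (limma, adjusted p = 0.0178) and did not pass in the LoVo-labelled cells (-0.18, adjusted p = 0.131, 95% interval -0.37 to 0.01). PFKP, the platelet isozyme, fell by 0.70 and 0.41. PFKM, the muscle isozyme, had the same difference of -0.40 under both labels, on either side of the threshold (limma, adjusted p = 0.0549 and 0.0453), and its LoVo-labelled call was lost in 12 of the alternative fits.

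The PFKFB enzymes make and break fructose 2,6-bisphosphate, the strongest activator of phosphofructokinase 1, and all 3 fell under both labels. PFKFB4 was the most abundant, at 85.8, 86.8 and 82.8 TPM in DLD-1 EV, 92.1, 87.4 and 83.5 TPM in DLD-1 LIN28B and 30.2, 35.9 and 39.5 TPM in DLD-1 LIN28B with alpelisib. Its LoVo-labelled values were 57.6, 62.6 and 71.3 TPM in LoVo EV libraries, 204, 182 and 179.9 TPM in LoVo-labelled LIN28B and 78.7, 100.4 and 77.6 TPM in the alpelisib libraries under that label. Without overlap, the falls were 1.30 in DLD-1 and 1.14 under the LoVo label (limma, adjusted p = 1.25e-06 and 1.71e-06). PFKFB3, the isozyme known for its high ratio of kinase to phosphatase activity, measured 51.3, 53.2 and 41.6 TPM in DLD-1 EV, 42.9, 45.2 and 45.6 TPM in DLD-1 LIN28B and 21.1, 22.8 and 24.3 TPM in DLD-1 LIN28B with alpelisib. Its levels were 45.2, 47.0 and 62.8 TPM in LoVo EV libraries, 154, 104 and 146 TPM in LoVo-labelled LIN28B and 57.9, 78.4 and 42.8 TPM in the alpelisib libraries under that label. PFKFB3 fell by 0.94 and 1.18, again without overlap of the groups. PFKFB2, known from heart and kidney, was low throughout and fell by 0.95 and 0.71. Its untreated level of 9.64 ± 0.657 TPM in DLD-1 became 4.51 ± 0.446 TPM, and with the LoVo label the libraries of 9.67 ± 3.05 and 5.61 ± 2.14 TPM overlapped (SD, n = 3).

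Aldolases cut fructose 1,6-bisphosphate into triose phosphates, and the brain isozyme had the largest fall of the 34 genes in DLD-1. ALDOC measured 93.1, 96.6 and 101 TPM in DLD-1 EV, 60.5, 59.9 and 59.2 TPM in DLD-1 LIN28B and 17.1, 21.6 and 20.9 TPM in DLD-1 LIN28B with alpelisib. The LoVo-labelled series gave 125, 133 and 180.3 TPM in LoVo EV libraries, 186, 176 and 190.1 TPM in LoVo-labelled LIN28B and 91.0, 118 and 83.0 TPM in the alpelisib libraries under that label. With log2 differences of -1.55 ± 0.13 in DLD-1 and -0.93 ± 0.13 in the LoVo-labelled cells (limma, adjusted p = 1.31e-06 and 6.76e-05), ALDOC in every DLD-1 alpelisib library lay below every DLD-1 library of the other 2 groups. ALDOA, the main aldolase of most tissues, was at 2615, 2672 and 2541 TPM in DLD-1 EV, 2592, 2699 and 2444 TPM in DLD-1 LIN28B and 1416, 1443 and 1567 TPM in DLD-1 LIN28B with alpelisib. The LoVo-labelled libraries held 1914, 1917 and 2344 TPM in LoVo EV libraries, 3696, 3367 and 3774 TPM in LoVo-labelled LIN28B and 1917, 2307 and 1856 TPM in the alpelisib libraries under that label. ALDOA fell by 0.81 and 0.84, and triose phosphate isomerase TPI1 by 0.66 and 0.62, to 889 ± 83.7 and 1118 ± 116 TPM (SD, n = 3).

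In the later steps of glycolysis, which make the ATP, 6 of the 7 genes fell under each label. GAPDH, often used as a reference gene, measured 9589, 9431 and 9811 TPM in DLD-1 EV, 9399, 9442 and 9121 TPM in DLD-1 LIN28B and 5955, 5789 and 5991 TPM in DLD-1 LIN28B with alpelisib. Its LoVo-labelled values were 5817, 5902 and 6569 TPM in LoVo EV libraries, 11925, 11669 and 11844 TPM in LoVo-labelled LIN28B and 6870.2, 8155 and 7490.5 TPM in the alpelisib libraries under that label. It fell by 0.66 under both labels (limma, adjusted p = 9.98e-06 and 3.65e-06), without overlap. PGK1, phosphoglycerate kinase, stood at 979.6, 961 and 881 TPM in DLD-1 EV, 835, 765 and 805 TPM in DLD-1 LIN28B and 280.0, 359.6 and 370.4 TPM in DLD-1 LIN28B with alpelisib. With the LoVo label PGK1 stood at 489, 504 and 705 TPM in LoVo EV libraries, 1094, 984 and 1204 TPM in LoVo-labelled LIN28B and 435, 510.2 and 372 TPM in the alpelisib libraries under that label. PGK1 fell by 1.26 and 1.32 (adjusted p = 1.86e-05 and 4.39e-06), with no library of 1 group reaching the other.

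The mutase and both main enolases fell under each label. PGAM1, phosphoglycerate mutase, measured 798, 769 and 719.7 TPM in DLD-1 EV, 763, 759 and 666 TPM in DLD-1 LIN28B and 382, 401 and 462 TPM in DLD-1 LIN28B with alpelisib. The same gene gave 401, 432 and 692 TPM in LoVo EV libraries, 889, 801 and 965 TPM in LoVo-labelled LIN28B and 448, 474 and 329 TPM in the alpelisib libraries under that label. PGAM1 fell by 0.81 and 1.10. ENO1, the ubiquitous enolase, was at 2889.7, 2868 and 2588 TPM in DLD-1 EV, 3189, 3218 and 2965 TPM in DLD-1 LIN28B and 1518, 1536 and 1825 TPM in DLD-1 LIN28B with alpelisib. For the LoVo label ENO1 was at 1458, 1611 and 2257 TPM in LoVo EV libraries, 3689, 3236 and 3796 TPM in LoVo-labelled LIN28B and 1795, 1994 and 1390.3 TPM in the alpelisib libraries under that label, and it fell by 0.95 and 1.06. ENO2, the neuronal enolase, which tumours also express, measured 159, 166 and 183 TPM in DLD-1 EV, 141, 132 and 147 TPM in DLD-1 LIN28B and 56.2, 67.2 and 55.6 TPM in DLD-1 LIN28B with alpelisib. Its other values were 224, 229 and 224 TPM in LoVo EV libraries, 290.3, 289 and 329 TPM in LoVo-labelled LIN28B and 109, 130.5 and 122 TPM in the alpelisib libraries under that label. ENO2 fell by 1.22 and 1.32, with the smallest p-values of the 34 genes under each label (limma, adjusted p = 2.11e-07 and 4.17e-08). Muscle enolase ENO3 was the exception, with differences of 0.42 ± 0.20 and 0.28 ± 0.20 that did not pass (adjusted p = 0.115 and 0.285). It shares 111 exon bases with PFN1 on the opposite strand, which reached 1499.77 TPM, so reads of the 2 genes may not have been told apart. PKM, pyruvate kinase, fell by 0.59 and 0.69, from 3132 ± 128 to 2097 ± 298 TPM in DLD-1 (SD, n = 3).

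Of the 4 lactate genes 3 fell under both labels. LDHA, the lactate dehydrogenase subunit that favours lactate formation, measured 2614, 2631 and 2348 TPM in DLD-1 EV, 2581, 2607 and 2304 TPM in DLD-1 LIN28B and 1119.6, 1207 and 1299.8 TPM in DLD-1 LIN28B with alpelisib. LoVo-labelled LDHA stood at 1164, 1219.8 and 1833 TPM in LoVo EV libraries, 3061, 2810.3 and 3355 TPM in LoVo-labelled LIN28B and 1462, 1524 and 1306 TPM in the alpelisib libraries under that label. It fell by 1.05 and 1.10 (limma, adjusted p = 5.66e-05 and 1.33e-05). LDHB, the heart subunit, fell by 0.33 and 0.40, and its DLD-1 call was lost in 7 of the alternative fits. The monocarboxylate carrier SLC16A3 (MCT4), known for lactate export from glycolytic cells, was at 338, 361 and 291 TPM in DLD-1 EV, 307, 317 and 290.0 TPM in DLD-1 LIN28B and 108, 103 and 149 TPM in DLD-1 LIN28B with alpelisib. Its LoVo-labelled libraries were at 149.7, 194 and 224 TPM in LoVo EV libraries, 468, 369.5 and 450.4 TPM in LoVo-labelled LIN28B and 215, 247 and 141 TPM in the alpelisib libraries under that label. SLC16A3 fell by 1.36 and 1.12, without overlap (adjusted p = 0.000117 and 0.000249). The carrier SLC16A1 (MCT1), which moves lactate in either direction, measured 194, 199 and 167 TPM in DLD-1 EV, 161, 164 and 147 TPM in DLD-1 LIN28B and 114, 133 and 157 TPM in DLD-1 LIN28B with alpelisib. The corresponding values were 33.6, 42.5 and 57.9 TPM in LoVo EV libraries, 110.2, 78.8 and 88.0 TPM in LoVo-labelled LIN28B and 75.8, 86.6 and 64.3 TPM in the alpelisib libraries under that label. Treated and untreated SLC16A1 overlapped under both labels and the differences of -0.23 ± 0.17 and -0.28 ± 0.17 did not pass (adjusted p = 0.334 and 0.217, 95% intervals -0.60 to 0.13 and -0.65 to 0.09).

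All 3 genes of pyruvate dehydrogenase control, 2 kinases and the subunit they act on, fell under both labels. PDK1 measured 62.3, 59.8 and 51.5 TPM in DLD-1 EV, 58.4, 52.8 and 52.8 TPM in DLD-1 LIN28B and 21.8, 24.2 and 25.5 TPM in DLD-1 LIN28B with alpelisib. With the LoVo label it measured 27.9, 31.0 and 46.5 TPM in LoVo EV libraries, 74.3, 62.9 and 79.4 TPM in LoVo-labelled LIN28B and 32.5, 37.6 and 26.5 TPM in the alpelisib libraries under that label. PDK3 was less abundant, at 19.9, 21.9 and 20.8 TPM in DLD-1 EV, 20.0, 19.7 and 19.0 TPM in DLD-1 LIN28B and 7.21, 8.11 and 8.50 TPM in DLD-1 LIN28B with alpelisib. The LoVo-labelled values of PDK3 were 7.82, 8.47 and 9.79 TPM in LoVo EV libraries, 24.3, 25.5 and 28.1 TPM in LoVo-labelled LIN28B and 11.8, 9.85 and 10.2 TPM in the alpelisib libraries under that label. PDK1 fell by 1.17 and 1.15 and PDK3 by 1.20 and 1.22, all without overlap (limma, adjusted p = 0.000106, 4.8e-05, 1.06e-06 and 3.37e-07). PDHA1, the E1 alpha subunit they phosphorylate, stood at 124, 121 and 130.4 TPM in DLD-1 EV, 136, 147 and 123 TPM in DLD-1 LIN28B and 111, 100.0 and 109 TPM in DLD-1 LIN28B with alpelisib. Its LoVo-labelled values were 68.5, 75.4 and 86.5 TPM in LoVo EV libraries, 134, 138 and 139 TPM in LoVo-labelled LIN28B and 102, 94.4 and 104 TPM in the alpelisib libraries under that label. PDHA1 fell by 0.34 and 0.45, again without overlap.

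On the branches towards glycogen and 2,3-bisphosphoglycerate, both members fell. PGM1, which links glucose 6-phosphate with glycogen, measured 97.4, 94.8 and 91.8 TPM in DLD-1 EV, 92.1, 92.2 and 82.9 TPM in DLD-1 LIN28B and 46.0, 46.2 and 60.9 TPM in DLD-1 LIN28B with alpelisib. In the LoVo-labelled set it measured 28.2, 34.3 and 50.9 TPM in LoVo EV libraries, 113, 94.4 and 110.2 TPM in LoVo-labelled LIN28B and 73.0, 77.8 and 46.4 TPM in the alpelisib libraries under that label. PGM1 fell by 0.80 and 0.71, and BPGM, the bisphosphoglycerate mutase known from red cells, by 0.73 and 0.75, to 4.81 ± 0.306 and 5.42 ± 0.913 TPM (SD, n = 3).

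The pentose phosphate genes were mixed, with 4 of 6 lower and 1 higher in DLD-1 and 5 of 6 lower and 1 higher in the LoVo-labelled cells. PGLS, 6-phosphogluconolactonase of the oxidative arm, was the 1 gene of the 34 that rose; it is given in full because of that, so it was chosen after its values were seen. It measured 68.4, 67.7 and 76.9 TPM in DLD-1 EV, 68.9, 67.2 and 71.2 TPM in DLD-1 LIN28B and 105, 109 and 107 TPM in DLD-1 LIN28B with alpelisib. The LoVo-labelled libraries were at 73.1, 76.0 and 66.1 TPM in LoVo EV libraries, 62.8, 67.9 and 62.6 TPM in LoVo-labelled LIN28B and 109, 122 and 112 TPM in the alpelisib libraries under that label. PGLS rose by 0.62 ± 0.07 and 0.81 ± 0.07 (limma, adjusted p = 2.62e-05 and 7.73e-07), and each alpelisib library lay above each library of the other groups. The next enzyme of the same arm, PGD, fell by 0.56 and 0.62, to 122 ± 3.69 and 94.0 ± 7.91 TPM (SD, n = 3).

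In the non-oxidative arm, TALDO1, transaldolase, measured 402, 403 and 389 TPM in DLD-1 EV, 452, 431 and 400.1 TPM in DLD-1 LIN28B and 369, 374 and 382 TPM in DLD-1 LIN28B with alpelisib. LoVo-labelled TALDO1 was at 157, 142 and 174 TPM in LoVo EV libraries, 389.9, 406 and 397 TPM in LoVo-labelled LIN28B and 328, 324 and 324 TPM in the alpelisib libraries under that label. TALDO1 fell by 0.19 and 0.29, the smallest differences called, and in DLD-1 its adjusted p of 0.0491 sat at the threshold and was lost in 19 of the alternative fits. RPE, ribulose phosphate epimerase, measured 70.7, 70.0 and 66.4 TPM in DLD-1 EV, 81.3, 70.2 and 82.5 TPM in DLD-1 LIN28B and 47.0, 59.0 and 56.8 TPM in DLD-1 LIN28B with alpelisib. Its levels in the LoVo-labelled set were 27.9, 28.3 and 39.5 TPM in LoVo EV libraries, 93.6, 83.2 and 89.1 TPM in LoVo-labelled LIN28B and 49.4, 50.9 and 43.3 TPM in the alpelisib libraries under that label. RPE fell by 0.52 and 0.88, and transketolase TKT by 0.75 and 0.64. RPIA, ribose 5-phosphate isomerase, went from 13.9 ± 0.797 to 10.7 ± 0.237 TPM in DLD-1, which did not pass (adjusted p = 0.102), and fell by 0.44 in the LoVo-labelled cells (adjusted p = 0.0328).

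**Figure D3:**
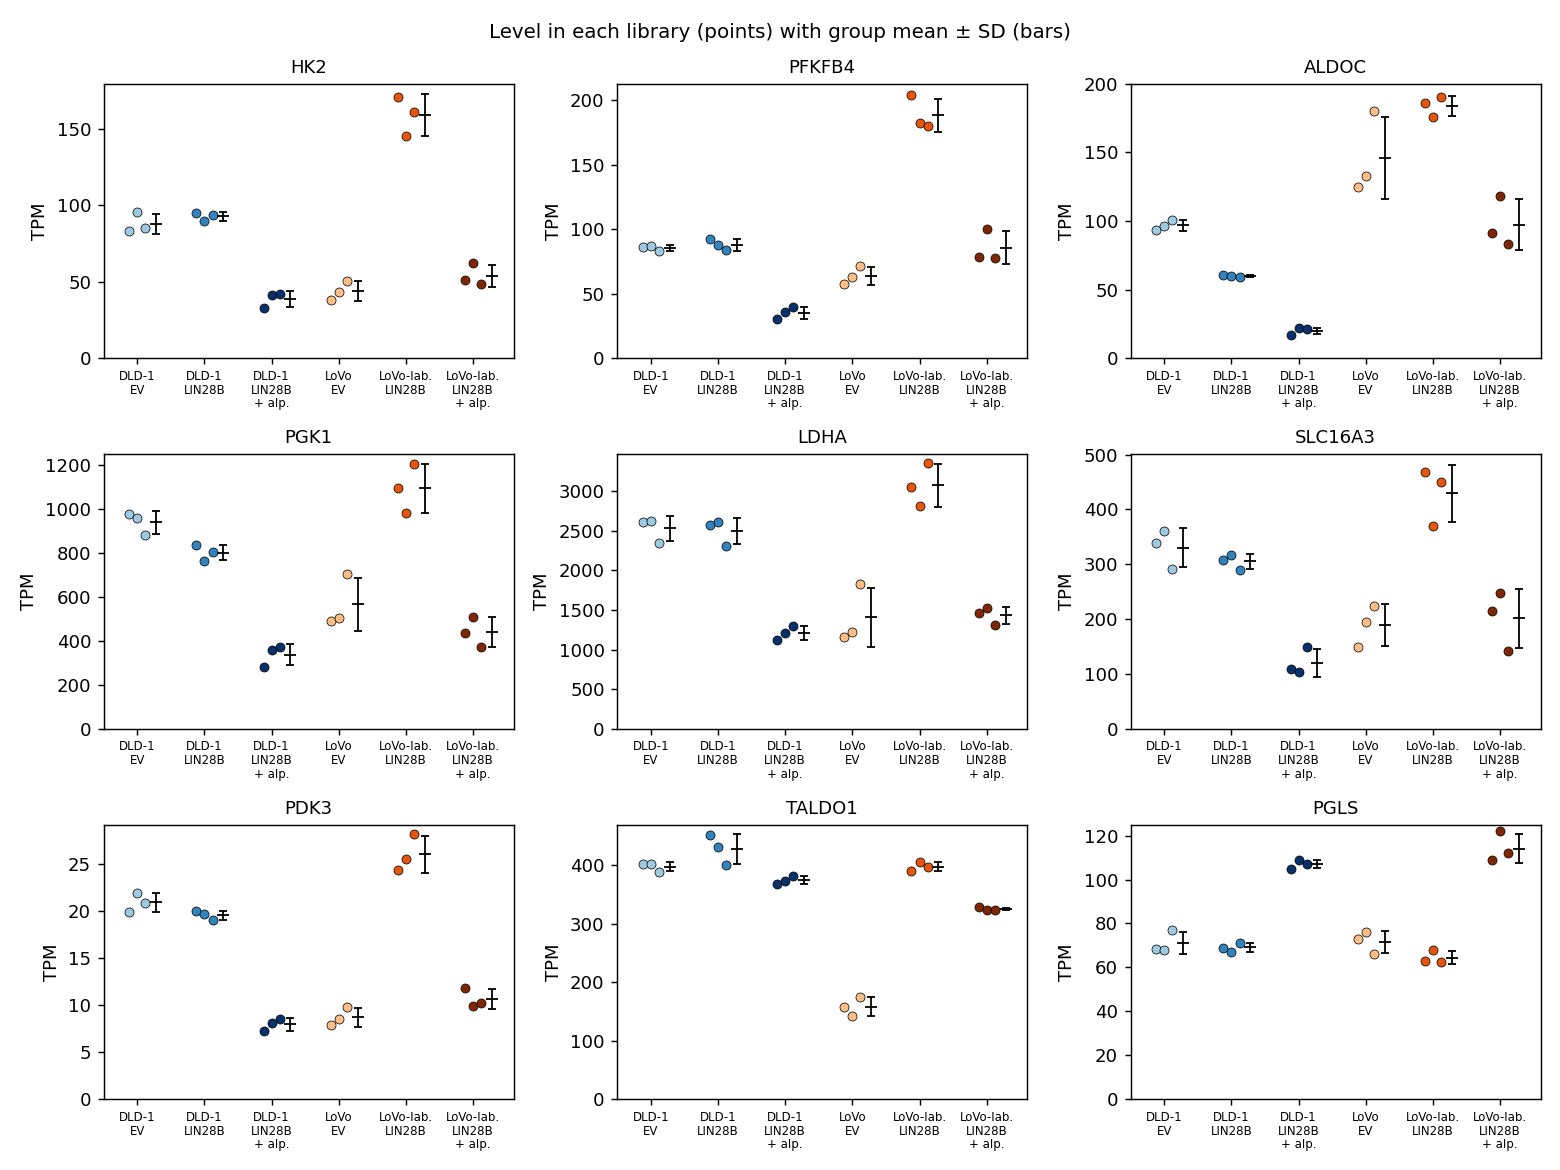
TPM of 9 of the genes in each of the 18 libraries (points), with the mean and SD of each group of 3 (bars). In all panels but TALDO1 and PGLS the alpelisib libraries lie well below the untreated LIN28B libraries of the same label, and PGLS lies above them.

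The difference between the 2 alpelisib responses was itself tested, and no member passed: 0 were called higher and 0 lower, where 0.637% and 0.21% of all genes were. At an unadjusted p under 0.05 there were 3 members, ALDOC, GPI and PFKP, where 12.4% of all genes were. The largest differences, LoVo-labelled minus DLD-1, were 0.63 ± 0.19 for ALDOC (limma, adjusted p = 0.148), -0.39 ± 0.16 for GPI, -0.36 ± 0.17 for RPE and -0.30 ± 0.17 for HK2. For PGK1 the difference was -0.06 with a 95% interval of -0.49 to 0.36, and for LDHA -0.06 with -0.46 to 0.35, so these data do not show that the responses are alike.

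Promoters are printed for 4 genes that fell with alpelisib and for 2, TALDO1 and LDHB, that fell less, to show the DNA before a RefSeq start. They are examples, and a link between their letters and the falls was not tested. The sequences are RefSeq's, on GRCh38.p14, 5′ to 3′ on the gene's strand. Each was ended before the first base of its window that the GENCODE annotation has in an exon. By that annotation the stretches of PGK1, SLC16A3, HK2, ALDOA and LDHB lie within the gene, after a start further upstream. Only that of TALDO1 lies before the whole gene. RefSeq windows of 250 bases before the start were matched for 32 of the 34 genes, all but PFKFB2 and SLC16A1. Capitals mark ACGTG or its reverse complement, the core of the hypoxia response element. The longer letters CACGTG, an E-box known for MYC and carbohydrate response factors, read as ACGTG on both strands. PGK1 lies at chrX:78103998-78104173 and SLC16A3 at chr17:82228792-82229031, each holding 2 matches, HK2 at chr2:74834920-74835169 holding CACGTG at 2 places, and ALDOA at chr16:30065510-30065672 holding 1 match. TALDO1 at chr11:747214-747328 and LDHB at chr12:21657972-21658092, on the minus strand, hold none; the others are on the plus strand. For genes with several starts 1 window with a match is shown, of 5 starts for SLC16A3, whose other 4 windows hold no ACGTG, of 2 for HK2 and of 3 for ALDOA, whose other windows hold it too.
PGK1: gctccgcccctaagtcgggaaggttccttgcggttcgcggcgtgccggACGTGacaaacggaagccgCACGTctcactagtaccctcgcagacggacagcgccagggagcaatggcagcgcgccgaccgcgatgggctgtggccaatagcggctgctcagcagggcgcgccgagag
SLC16A3: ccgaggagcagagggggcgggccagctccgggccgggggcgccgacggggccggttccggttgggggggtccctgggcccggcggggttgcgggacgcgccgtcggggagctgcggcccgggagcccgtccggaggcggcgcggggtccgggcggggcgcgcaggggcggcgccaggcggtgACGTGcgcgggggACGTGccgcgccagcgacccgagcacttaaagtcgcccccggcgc
HK2: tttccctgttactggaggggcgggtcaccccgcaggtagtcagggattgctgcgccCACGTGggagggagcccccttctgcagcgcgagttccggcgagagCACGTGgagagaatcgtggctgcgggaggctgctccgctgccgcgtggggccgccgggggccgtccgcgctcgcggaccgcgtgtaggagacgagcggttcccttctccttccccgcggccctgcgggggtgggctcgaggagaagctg
ALDOA: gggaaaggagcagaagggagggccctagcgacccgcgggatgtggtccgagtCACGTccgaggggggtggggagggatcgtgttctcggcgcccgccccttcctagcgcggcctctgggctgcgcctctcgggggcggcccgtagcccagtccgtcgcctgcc
TALDO1: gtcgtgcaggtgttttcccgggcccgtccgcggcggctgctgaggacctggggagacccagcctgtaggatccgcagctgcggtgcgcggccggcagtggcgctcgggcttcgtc
LDHB: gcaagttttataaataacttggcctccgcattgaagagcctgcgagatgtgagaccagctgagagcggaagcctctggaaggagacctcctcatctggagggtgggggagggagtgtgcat

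Over all windows, ACGTG on either strand stood in 21 of the 61 windows of member genes (34.4%), in 18.5% of all 35116 windows and in 22.0% of the 16893 windows of genes tested. Counted by gene, 18 of 32 members held it, but genes with several starts have more windows. Among members with a single start 8 of 20 held it (40.0%), beside 23.5% of the 8509 single-start genes tested. CACGTG, a part of those matches, stood in 9.8% of member windows and 8.0% of windows of genes tested, and GCGTG, the other common core letters of the response element, in 32.8% and 42.4%. PFKFB4, PGAM1, ENO1 and PGLS held no ACGTG in their windows. Among genes with smaller falls, PFKM (-0.40 under both labels) and PGD (-0.56 and -0.62) held it, and PFKL (-0.30 and -0.18) did not. A match says only that these letters are present, and no match only that they are not in the window.

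LIN28B was then compared with EV, and in DLD-1 1 of the 34 genes passed the test. The untreated LIN28B libraries are the same as in the alpelisib comparisons. Limma called 1 of the 34 genes lower and 0 higher, where 1.32% of all genes were called lower and 1.21% higher. At an unadjusted p under 0.05 there were 2 members, where 14.3% of all genes were. The member called was ALDOC, which was lower in each of the 3 LIN28B libraries than in any EV library, at 59.9 ± 0.676 against 96.9 ± 3.93 TPM (SD, n = 3; log2 difference -0.68 ± 0.13 SE, limma, adjusted p = 0.0137). That call was lost when DLD-1 EV replicate 2 or 3 or DLD-1 LIN28B replicate 3 was left out. The other 33 differences lay between -0.27 for ENO2 (adjusted p = 0.133) and 0.28 for RPIA (adjusted p = 0.458), and their median with ALDOC was -0.04, beside 0.02 over all genes. The 95% intervals were -0.17 to 0.34 for HK2, -0.30 to 0.26 for LDHA and -0.19 to 0.10 for GAPDH.

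Under the LoVo label the same comparison gave 29 members higher and 0 lower, where 40.3% of all genes were called higher and 16.5% lower. At an unadjusted p under 0.05 there were also 29, where 61% of all genes were. The median of the 34 genes was 0.96, beside 0.26 over all genes. The largest differences were 1.84 ± 0.12 for HK2, 1.72 ± 0.14 for HK1, 1.55 ± 0.11 for PFKFB4 and 1.50 ± 0.19 for PGM1 (limma, adjusted p = 2.65e-09, 5.16e-08, 8.48e-09 and 6.05e-06). In these 4 genes the lowest LIN28B library exceeded the highest EV library. Every gene was called in all roles but lower glycolysis (5 of 7) and pentose phosphate (3 of 6). Among the 4 lactate genes, LDHA was at 1.16 and SLC16A3 at 1.19. The 5 genes not called were ENO3, PKM, TKT, RPIA and PGLS, 3 of them of the pentose phosphate branch, where TALDO1 and RPE rose by 1.33 and 1.46.

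As LoVo EV held the largest mitochondrial share, the scaling matters for this comparison. Scaled by the median of ratios, the median of all genes went from 0.256 to -0.034, and 24 members were higher and 2 lower. The 2 lower were TKT and PGLS. How many of all genes were called under that scaling was not counted, so these counts have no share to stand beside. Under that scaling TKT, at 0.08 in the TPM fit, was at -0.28 (limma, adjusted p = 0.0108), and PFKP and ALDOC, higher in the TPM fit at 0.27 and 0.35 with overlapping libraries, were at -0.09 and -0.01 without passing. LoVo EV replicate 3, with the least mitochondrial RNA of its group, had the highest value of the group in each member except ENO2, ENO3 and PGLS. Because of the line label, none of these values separates LIN28B from the difference between the lines.

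**Figure D4:**
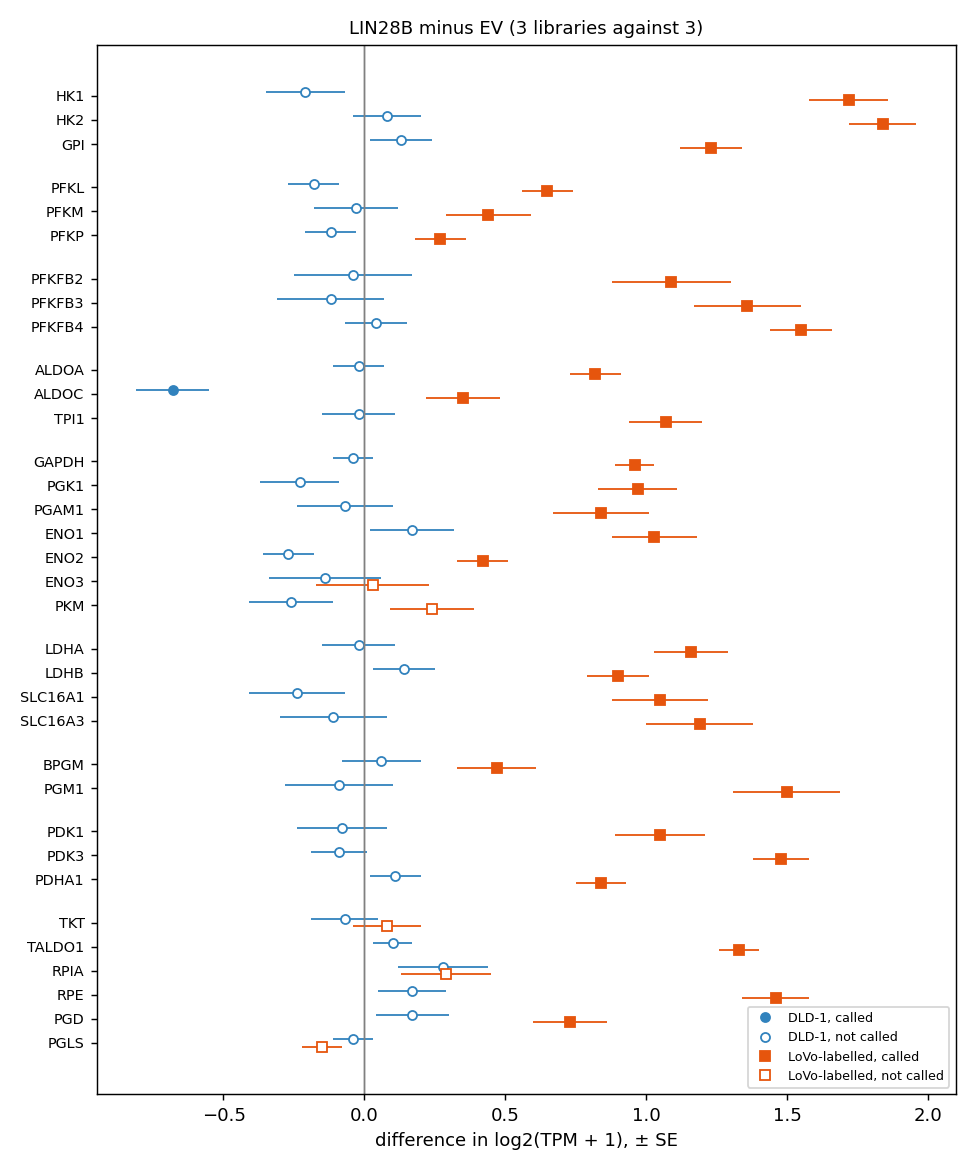
Difference in log2(TPM + 1) between LIN28B and EV for each of the 34 genes, ordered by role, with bars for the SE; filled symbols passed an adjusted p under 0.05. In DLD-1 (circles) ALDOC is the only filled symbol, at -0.68, while 29 LoVo-labelled differences (squares) are filled and lie right of 0.

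The difference of the LIN28B effects was called for 27 members, all higher under the LoVo label, and for 0 lower, where 30.4% of all genes were called higher and 12.4% lower. At an unadjusted p under 0.05 there were 30, where 49.9% of all genes were. It was largest for HK1 at 1.94 ± 0.20, HK2 at 1.76 ± 0.17, PGM1 at 1.59 ± 0.27 and PDK3 at 1.57 ± 0.14 (limma, adjusted p = 1.84e-06, 6.81e-07, 0.000228 and 4.08e-07). Its median over the members was 1.02, beside 0.23 over all genes.

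The EV groups compare the lines with each other. LoVo EV was lower than DLD-1 EV in 23 members and higher in 2, where 38.2% of all genes were called lower and 17.3% higher. SLC16A1 differed most, at 44.7 ± 12.3 TPM in LoVo against 186 ± 17.3 TPM in DLD-1 (SD, n = 3; log2 difference -2.07 ± 0.17 SE, limma, adjusted p = 5.32e-08). PGM1, TALDO1 and PDK3 followed, with log2 differences of -1.34, -1.33 and -1.18 and no overlap. The members higher in LoVo EV were ALDOC at 0.57 and ENO2 at 0.41. Scaled by the median of ratios, 18 members were lower and 6 higher, and PFKP went from -0.04 to 0.27 (limma, adjusted p = 0.00388). The shares of all genes called under that scaling were not counted.

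Between the LIN28B groups, 12 members were higher and 1 was lower with the LoVo label, where 7.96% of all genes were called higher and 6.02% lower. ALDOC led at 1.60 ± 0.13, followed by PFKFB3 at 1.55 ± 0.19, ENO2 at 1.11 ± 0.09 and PFKFB4 at 1.09 ± 0.11 (limma, adjusted p = 3.84e-07, 2.39e-05, 2.55e-07 and 3.88e-06). The member called lower was SLC16A1, at 92.3 ± 16.2 against 157 ± 9.36 TPM (SD, n = 3). The 13 calls became 20 in a fit on these groups alone and 10 to 18 with 1 library left out. With alpelisib in both, 11 members were higher and 2 lower under the LoVo label, where 11.5% and 7.58% of all genes were. ALDOC was again first at 2.23 ± 0.13, with 91.0, 118 and 83.0 TPM against 17.1, 21.6 and 20.9 TPM. PFKFB3, PFKFB4 and HK1 followed at 1.31, 1.26 and 1.18, and SLC16A1 and TALDO1 were lower at -0.82 and -0.20. With 1 library left out the 13 calls became 9 to 20, the lowest without DLD-1 LIN28B alpelisib replicate 1 and the highest without LoVo EV replicate 3, which is in neither group but enters the shared estimate of the spread.

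Treated LIN28B cells were also set against EV. These comparisons share the alpelisib libraries with those of treated and untreated LIN28B cells and the EV libraries with those of LIN28B and EV, so their values are not independent of either. In DLD-1, most of the 34 genes were below the EV level with alpelisib: 28 members were lower and 1 higher, where 20.2% of all genes were called lower and 9.71% higher. ALDOC was lower at -2.24 log2, PGK1 at -1.49, ENO2 at -1.49 and SLC16A3 at -1.47 (limma, adjusted p = 2.11e-08, 3.21e-06, 2.11e-08 and 5.62e-05). LDHB, PDHA1, TALDO1, RPIA and ENO3 did not pass. Under the LoVo label 13 members were higher than in LoVo EV and 5 lower, where 32.2% of all genes were called higher and 14.7% lower. HK1 was higher at 1.17, TALDO1 at 1.04 and PGM1 at 0.79, and ENO2 was lower at -0.90. Here the split depended on the scaling, and the shares of all genes were not counted for the alternatives. The split was 8 higher and 12 lower scaled by the median of ratios, and 10 and 10 without the mitochondrial genome. With 1 library left out it stayed at 11 to 16 higher and 3 to 5 lower. Without LoVo EV replicates 1 and 2 together it was 5 and 11, but LoVo EV is then 1 library, assumed to vary like the other groups.

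Ratios of 2 genes within a library do not depend on the scaling and show how the makeup of each step moved. With 3 libraries against 3 the exact permutation test cannot go below a p of 0.10, so the ratios are given as a description, for 11 pairs of genes in 4 comparisons. LDHA over LDHB was 2.47 in DLD-1 EV, 2.21 in LIN28B and 1.35 with alpelisib, and 1.87, 2.24 and 1.38 under the LoVo label. Each treated group lay below its untreated group, at 1.29 to 1.39 against 2.17 to 2.26 in DLD-1. SLC16A3 over SLC16A1 went from 1.94 ± 0.0327 to 0.891 ± 0.0985 in DLD-1 and from 4.68 ± 0.437 to 2.63 ± 0.374 in the LoVo-labelled cells (SD, n = 3), so that SLC16A1 became the more abundant carrier in treated DLD-1 cells. HK2 over HK1 went from 1.13 to 0.799 and from 0.974 to 0.486. PDK3 over PDHA1 went from 0.145 to 0.0748 and from 0.189 to 0.106, and PGLS over PGD from 0.386 to 0.877 and from 0.446 to 1.22.

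Some ratios set LoVo EV apart instead. TKT over TALDO1 was 1.60 ± 0.211 in LoVo EV, 0.664 ± 0.0440 in LoVo-labelled LIN28B, 0.539 ± 0.0181 in DLD-1 LIN28B and 0.608 ± 0.0169 in DLD-1 EV. ENO2 over ENO1 was 0.132 ± 0.0285 in LoVo EV and 0.0613 ± 0.00837 in DLD-1 EV, and overlapped between treated and untreated cells under both labels. PFKP over PFKL was 1.22 ± 0.0688 in LoVo EV and at most 0.956 in any library of the other groups (SD, n = 3). SLC16A3 over SLC16A1 was the exception among these, with overlapping libraries in LoVo EV (4.30 ± 0.372) and LoVo-labelled LIN28B, against 1.94 in DLD-1 LIN28B.

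**Figure D5:**
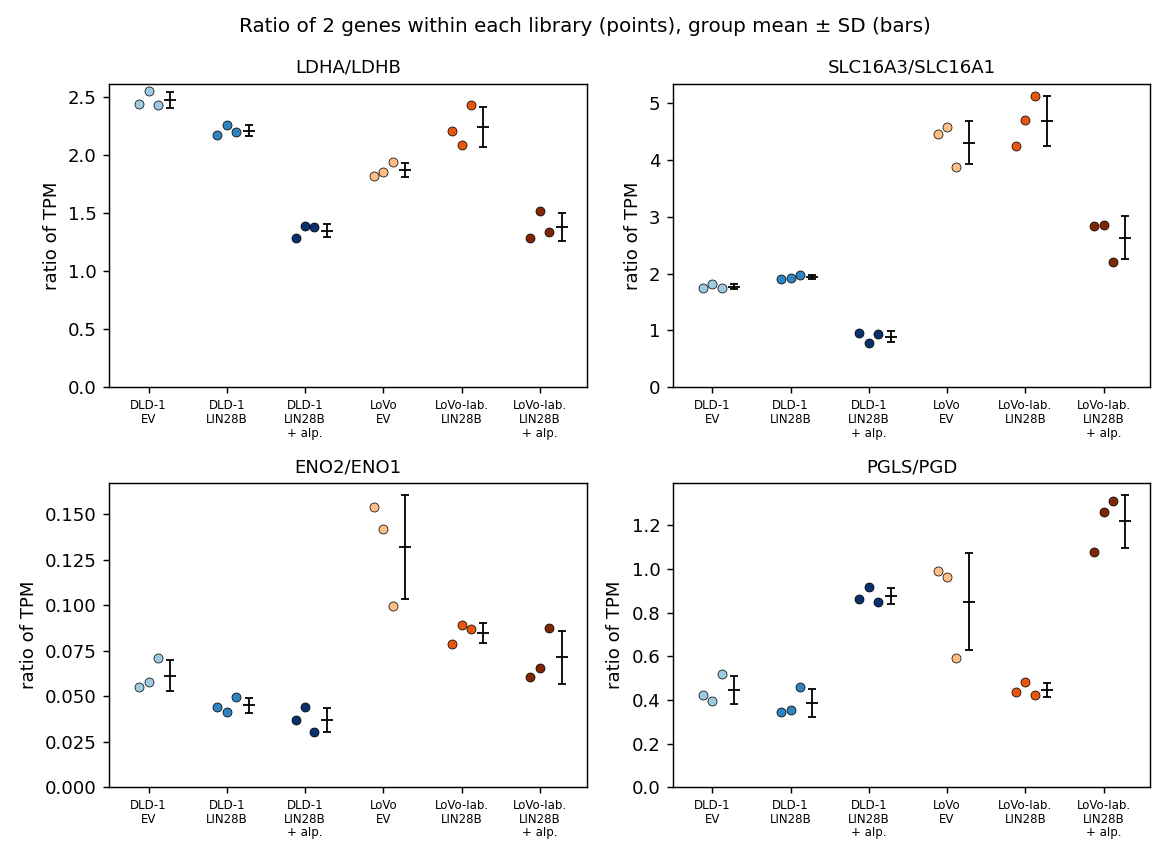
Ratio of the TPM of 2 genes in each library (points) for 4 pairs, with the mean and SD of 3 libraries (bars). LDHA/LDHB and SLC16A3/SLC16A1 are lower and PGLS/PGD higher with alpelisib under both labels, while ENO2/ENO1 overlaps between treated and untreated cells.

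The list of 69 other genes of the pathway was drawn up by function (further isozymes, transporters, the pyruvate dehydrogenase complex, gluconeogenesis, glycogen and regulators), and 48 of them passed the filter. Earlier results of these data were known when the list was made, so its shares are a description. With alpelisib, 25 of them were lower and 4 higher in DLD-1, and 21 lower and 7 higher in the LoVo-labelled cells, with medians of -0.41 and -0.22. The shares lower, 52.1% and 43.8%, stand beside 21.9% and 24.6% of all genes tested, and the shares higher, 8.33% and 14.6%, are near the 9.05% and 15.1% of all genes. The glycogen branching enzyme GBE1 fell most in both. Its levels were 66.0 ± 2.97 TPM without and 24.7 ± 2.99 TPM with alpelisib in DLD-1, and 137 ± 6.39 and 37.3 ± 4.12 TPM under the LoVo label (SD, n = 3; limma, adjusted p = 2.96e-06 and 7.08e-08). PGM2, a phosphopentomutase, fell by 1.33 and 1.62, the oxygen-dependent hydroxylase EGLN3 by 1.35 in DLD-1 and the pyruvate dehydrogenase phosphatase PDP2 by 1.53 in the LoVo-labelled cells. Higher in both were PCK1 of gluconeogenesis (0.63 and 0.93) and LDHD, which oxidises D-lactate (0.75 and 0.92), with RBKS at 0.63 in DLD-1 and the muscle glycogen phosphorylase PYGM, from 0.627 to 2.62 TPM, at 1.14 in the LoVo-labelled cells.

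Without alpelisib, DLD-1 LIN28B differed from EV in 2 of these 48, the mitochondrial PEP carboxykinase PCK2 at 0.75 and the glucose 6-phosphatase G6PC3 at 0.36, both higher (limma, adjusted p = 0.01 and 0.0467), which is 4.17% beside 1.21% of all genes. Under the LoVo label 34 were higher (70.8%, beside 40.3% of all genes) and 6 lower (12.5%, beside 16.5%). The highest were UGP2, which makes UDP-glucose for glycogen (2.38), PCK1 (2.19) and GBE1 (2.12), and the lowest EMB, a partner protein of lactate carriers (4.85 to 0.207 TPM), the glucose-sensing factor MLXIPL (-1.58) and the kinase PDK2 (-1.28). The difference of the LIN28B effects was called higher for 29 (60.4%, beside 30.4%), with UGP2 (2.52), EGLN3 (2.45) and PCK1 (2.12) first, and lower for 6 (12.5%, beside 12.4%), with EMB, MLXIPL (-1.97) and PDK2 (-1.33) first. That of the alpelisib effects was called lower for 1 (2.08%, beside 0.21%), G6PC3 at -0.63 (limma, adjusted p = 0.0265).

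LoVo EV against DLD-1 EV gave 6 of the 48 higher (12.5%, beside 17.3% of all genes) and 31 lower (64.6%, beside 38.2%). EMB, listed at 0 in all DLD-1 libraries, MLXIPL (2.02) and PDK2 (0.95) were higher, and the gluconeogenic FBP1 (-2.66), UGP2 (-2.37) and the mitochondrial pyruvate carrier MPC1 (-1.76) lower. Between the LIN28B groups 7 were higher under the LoVo label (14.6%, beside 7.96%), PCK1 (1.82), GBE1 (1.04) and EGLN3 (0.86) first, and 4 lower (8.33%, beside 6.02%), FBP1 (-1.28), PDP1 (-0.57) and MYC (-0.57) first. With alpelisib in both 13 were higher (27.1%, beside 11.5%), PCK1 (2.11), EGLN3 (1.48) and EPAS1 (1.29) first, and 3 lower (6.25%, beside 7.58%), FBP1 (-0.92), MPC1 (-0.79) and G6PC3 (-0.52). Treated DLD-1 cells against EV gave 8 higher (16.7%, beside 9.71%), PDK2 (0.74), PCK1 (0.69) and MYC (0.65) first, and 20 lower (41.7%, beside 20.2%), EGLN3 (-1.82), GBE1 (-1.37) and PGM2 (-1.29) first. Under the LoVo label that comparison gave 24 higher (50%, beside 32.2%), PCK1 (3.11), PGM2L1 (2.00) and FBP1 (1.82) first, and 6 lower (12.5%, beside 14.7%), EMB (at 0.268 TPM), MLXIPL (-1.62) and the glycogen phosphorylase PYGL (-1.39) first.

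Hypoxia-inducible factor targets outside glycolysis were counted as neighbours of the pathway, from a list of 15 genes, all tested. This list too was made with earlier results of these data known. EGLN3 is in it and also in the list of other pathway genes, so the counts of the 2 lists are not separate. With alpelisib 14 fell under each label (93.3%, beside 21.9% and 24.6% of all genes), with medians of -1.35 in DLD-1 and -1.21 in the LoVo-labelled cells. VEGFA, the angiogenic growth factor, fell by 1.16 and 1.21, with treated levels of 101 ± 9.22 and 226 ± 22.4 TPM against 226 ± 26.0 and 524 ± 51.4 TPM without drug (SD, n = 3; limma, adjusted p = 5.36e-06 and 1.26e-06). NDRG1, a stress-induced cytosolic protein, fell by 1.37 and 1.52. CA9, a carbonic anhydrase of the tumour cell surface, fell to 1.69 ± 0.371 TPM in DLD-1 and 0.819 ± 0.523 TPM under the LoVo label, where the untreated level was 6.58 ± 0.675 and 3.19 ± 2.06 TPM. DLD-1 LIN28B and EV differed in 0 of the 15 (limma), where 1.21% of all genes were called higher and 1.32% lower. At an unadjusted p under 0.05 there were 4 of the 15, where 14.3% of all genes were. Under the LoVo label 13 were higher than in EV (86.7%, beside 40.3% of all genes) and 2 lower (13.3%, beside 16.5%), with VEGFA at 1.64 and NDRG1 at 1.23, and CA9 went the other way, at 155 ± 11.8 TPM in LoVo EV (log2 difference -5.33 ± 0.27 SE). Against EV, treated cells had 14 lower in DLD-1 (93.3%, beside 20.2%), and 5 higher and 4 lower under the LoVo label (33.3% and 26.7%, beside 32.2% and 14.7%). LoVo EV had 3 higher and 9 lower than DLD-1 EV (20% and 60%, beside 17.3% and 38.2%). LoVo-labelled LIN28B had 12 higher and 1 lower than DLD-1 LIN28B (80% and 6.67%, beside 7.96% and 6.02%), and 13 were higher under the LoVo label with alpelisib in both (86.7%, beside 11.5%). The difference of the LIN28B effects was called higher for 13 and lower for 2 (86.7% and 13.3%, beside 30.4% and 12.4%), and that of the alpelisib effects higher for 1 and lower for 2 (6.67% and 13.3%, beside 0.637% and 0.21%). Labels give no oxygen level, and the part of hypoxia signalling in the members' fall was not tested.

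Neighbouring and copied genes limit some values, since the use of strand in counting is not given in the sources used here. On the opposite strand, SLC16A3 shares 482 exon bases with CSNK1D (up to 197.83 TPM), PGM1 shares 197 with ITGB3BP (59.25 TPM), PFKFB2 shares 315 with YOD1 (17.37 TPM), RPE shares 837 with KANSL1L (12.95 TPM), PFKM shares 628 with SENP1 (8.31 TPM), SLC16A1 shares 175 with SLC16A1-AS1 (12.08 TPM) and PDHA1 shares 956 with MAP3K15 (3.82 TPM). PFKFB2 itself was at most 13.2 TPM, under the highest level of YOD1. PGLS, ALDOC, PDK1 and GAPDH share 261, 296, 445 and 422 exon bases with non-coding genes on the opposite strand, whose levels are not given. Further overlaps of other members are not listed here. GAPDH has 65 annotated pseudogenes, whose sum reached at most 0.181% of its TPM in a library. The largest such share was 4.80%, for RPE. On the same strand, GPI, ALDOA and LDHB share 542, 1657 and 997 exon bases with other annotated protein-coding genes, which were not analysed here. PFKFB4 shares 289 with UCN2 (up to 3.15 TPM) and PGK1 97 with ATP7A (14.83 TPM) on the same strand. Reads in these stretches may not have been told apart even if strand was used.

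On GRCh38, in GENCODE release 29, all 34 are protein-coding genes. Those with the largest falls with alpelisib in DLD-1 lie on chromosome 17 at 28573115 to 28577264 (ALDOC, minus strand) and 82228397 to 82261129 (SLC16A3, plus), on chromosome 3 at 48517684 to 48562015 (PFKFB4, minus), on chromosome X at 77910739 to 78129296 (PGK1, plus) and 24465221 to 24541862 (PDK3, plus), on chromosome 2 at 74833981 to 74893359 (HK2, plus), and on chromosome 12 at 6913745 to 6923698 (ENO2, plus). GAPDH at 6533927 to 6538374, TPI1 at 6867119 to 6870948 and ENO2 lie close together on chromosome 12, and fell by 0.66, 0.66 and 1.22 with alpelisib in DLD-1. PGLS lies on chromosome 19 at 17511629 to 17521288, on the plus strand.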

How the data were processed

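The deposited table holds TPM per gene and library, made by the authors, per the file headers. Tools and build named in the submitters' processing notes are STAR 2.7.10, Picard, HTSeq, DESeq2 and hg38, with no role or order. The annotation, gene lengths and use of strand are not given in the sources used here. Per the labels' protocols, total RNA was enriched with oligo(dT). TPM carry no counts, so the depth and the counting error are unknown.

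From these values, log2(TPM + 1) was fitted with limma 3.58.1 in R 4.3.3, using its mean-variance trend, in 1 model of the 6 groups over all 18 libraries with 12 residual degrees of freedom. Genes at 1 TPM or more in at least 3 libraries were tested, 18537 of 61806. P-values were adjusted by Benjamini-Hochberg over all of them, and an adjusted p under 0.05 is a call. The fit was tested on simulated data. Identifiers were matched to symbols for 61757 genes. Differences are given as mean ± SE and levels as mean ± SD.

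The members and gene lists were chosen with earlier results of these data known. Values per library are given for members called with a log2 change of 1 or more for LIN28B in DLD-1 or for alpelisib, for the 4 largest changes in each other comparison and for the most abundant member of each role. Of the other pathway genes, the 3 called with the largest rise and the 3 with the largest fall per comparison follow the same rule. Alternatives were a pseudocount of 0.1, no filter, median-of-ratios scaling, TPM without the mitochondrial genome, fits on the compared groups only, the replicate number as a block, and each library left out.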

Additional observations from a re-analysis of the deposited data

Results flagged for a closer look

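Of the 34 members, 27 had a LIN28B effect that differed between the line labels by the interaction term in limma (adjusted p under 0.05), and all 27 differences, LoVo label minus DLD-1 on the log2(TPM + 1) scale, were positive. Among the hexose phosphate genes they were 1.94 for HK1, 1.76 for HK2 and 1.10 for GPI. The phosphofructokinase genes gave 0.84 for PFKL and 0.39 for PFKP. Those of fructose 2,6-bisphosphate gave 1.13 for PFKFB2, 1.48 for PFKFB3 and 1.51 for PFKFB4. ALDOA was at 0.83, ALDOC at 1.04 and TPI1 at 1.09. In the later steps GAPDH was at 1.00, PGK1 at 1.19, PGAM1 at 0.90, ENO1 at 0.86 and ENO2 at 0.69. For lactate the values were 1.18 for LDHA, 0.76 for LDHB, 1.29 for SLC16A1 and 1.30 for SLC16A3. PGM1 was at 1.59, PDK1 at 1.12, PDK3 at 1.57 and PDHA1 at 0.73. In the pentose phosphate branch TALDO1 was at 1.23, RPE at 1.29 and PGD at 0.56. LoVo EV enters every one of these values, and a line difference between LoVo EV and the LoVo-labelled LIN28B libraries cannot be told apart from the effect of LIN28B in them.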

How the results depend on the processing

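Scaled by the median of ratios, the median over all genes went from 0.256 to -0.034 for LIN28B versus EV under the LoVo label, from -0.201 to 0.038 for LoVo EV versus DLD-1 EV, from 0.185 to -0.016 for alpelisib versus EV under the LoVo label, from 0.228 to -0.036 for the difference of LIN28B effects and from -0.092 to 0.011 for alpelisib in DLD-1. Over all members, comparisons and alternatives, 8948 values kept their side of the threshold, 281 lost the threshold and 116 came to pass it. A further 5 changed direction with the main or the alternative fit passing, and the cause was not tested. Changes of direction where neither fit passed are counted among the 8948. With median-of-ratios scaling the 5 included PFKP (-0.09), ALDOC (-0.01) and TKT (-0.28) for LIN28B versus EV under the LoVo label. They also included PFKP (0.27) for LoVo EV versus DLD-1 EV. Without LoVo EV replicates 1 and 2, an alternative added after seeing the data, LDHA for alpelisib versus EV under the LoVo label was at -0.36 in place of 0.05.

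Same-numbered libraries showed no clear shared deviation from their group means, with correlations between -0.302 and 0.119. The labels do not say whether they share a culture or batch. With the replicate number as a block, the members called were 0 for LIN28B versus EV in DLD-1 in place of 1, 7 between the LIN28B groups and 6 between the alpelisib groups in place of 13 each. Fitted on the compared groups only, 20 were called between the LIN28B groups. With 1 library left out, the counts ranged from 0 to 1 for LIN28B versus EV in DLD-1, from 10 to 18 between the LIN28B groups, and from 9 to 20 between the alpelisib groups, with 20 reached without LoVo EV replicate 3. For alpelisib versus untreated they ranged from 27 to 32 in DLD-1 and from 27 to 31 under the LoVo label. Depth is unknown, so no detection limit is given.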
